A study of Saccharomyces cerevisiae with 12 samples.

Results

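SSF2 (YDR312W) and 7 related genes for ribosome assembly were examined in the transcriptomes of budding yeast cells that lacked or overexpressed EUC1. The 8 genes, of 6825 identifiers in the table, were SSF2, its paralog SSF1 (YHR066W), the other genes for Brix-domain proteins RPF1 (YHR088W), RPF2 (YKR081C), BRX1 (YOL077C) and IMP4 (YNL075W), and the genes for the SSF1 partners RRP14 (YKL082C) and RRP15 (YPR143W). SSF2 was chosen by its lower level in euc1∆ cells, so its values in that comparison, and those of the other 7 genes there, are given as a description without a test. The other 7 genes were taken for their family and their complexes, but with earlier results of these data known.

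PolyA RNA was sequenced from 12 samples, 3 in each of 4 groups. The question was whether the DNA-binding protein Euc1 acts on transcription at ub-hotspots, the genomic sites where ubiquitin accumulates. In the first experiment euc1∆ cells (ymr111c::natNT2) were set against WT cells. Both were of strain DF5a, carried YIplac211-MED11::URA3 and grew in YP with glucose to mid-log phase. In the second experiment pGAL-EUC1 cells, which carry EUC1 behind the galactose-inducible GAL promoter, were set against control cells with EUC1 behind its own promoter. Both were of strain W303a RAD5, lacked the chromosomal copy (ymr111c::natNT2), carried their EUC1 construct on an integrated YIplac211 URA3 plasmid, grew in YP with raffinose and received galactose (2%) for 3 h. The control cells are therefore not a plain wild type, and each genotype was represented by a single named strain. The labels do not say whether the 3 samples of a group came from separate cultures, so the p-values measure the spread between these samples, which may be technical.

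Levels are TPM (reads per length of transcript, scaled to a common total by the authors), and the number of reads behind a value is unknown. The listed values summed to between 973736 and 993435 in the 12 samples. EUC1 was listed at 0, 0 and 0.09 TPM in euc1∆ and at 9.56, 15.96 and 13.02 TPM in WT. It was at 1985, 1942 and 2035 TPM in pGAL-EUC1 and at 50.6, 30.8 and 31.6 TPM in the control, in the order the labels call for. The summed level of 4 galactose genes (GAL1, GAL2, GAL7, GAL10) was between 12956 and 14160 TPM in the 6 galactose samples and between 11.3 and 17.4 TPM in the 6 glucose samples. Genes of haploid a cells (MFA1, MFA2, STE2, BAR1) summed to between 924.5 and 1583 TPM over the 12 samples, against 10.7 to 31.0 TPM for 3 genes of alpha cells, and both strains are labelled as mating type a.

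Proteins with a Brix domain work in the nucleolus, where each joins a different early step of ribosome assembly and binds pre-ribosomal RNA together with a partner protein. In yeast, Ssf1 and Ssf2 are interchangeable paralogs that act with Rrp14 and Rrp15 on the precursor of the large (60S) subunit. Rpf1 works with Mak16, Nsa1 and Rrp1, and Brx1 with Ebp2, on the same precursor. Rpf2 and Rrs1 bring in the 5S RNA with the ribosomal proteins Rpl5 and Rpl11. Imp4 is the member of the family in the small (40S) subunit pathway, where it binds the U3 RNA complex with Imp3 and Mpp10. Genes for ribosome assembly are transcribed together in growing yeast, and many carry the PAC and RRPE elements upstream.

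SSF2 lies at chrIV:1087581-1088942 on the plus strand of the R64 genome, in a single coding exon without an annotated overlapping gene. The gap of 587 bases to the upstream gene TFB1, which encodes a subunit of the transcription factor TFIIH, holds the motif of the ub-hotspot ub-HS3. The motif, at chrIV:1087212-1087247, ends 334 bases before the first base of SSF2 and begins 219 bases after the end of TFB1. It is shown because its place drew attention to SSF2, read from the R64 genome on the plus strand with its 3 AACAA repeats (TTGTT on the minus strand) in capitals.
ub-HS3: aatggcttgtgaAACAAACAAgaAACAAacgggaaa

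**Figure D1:**
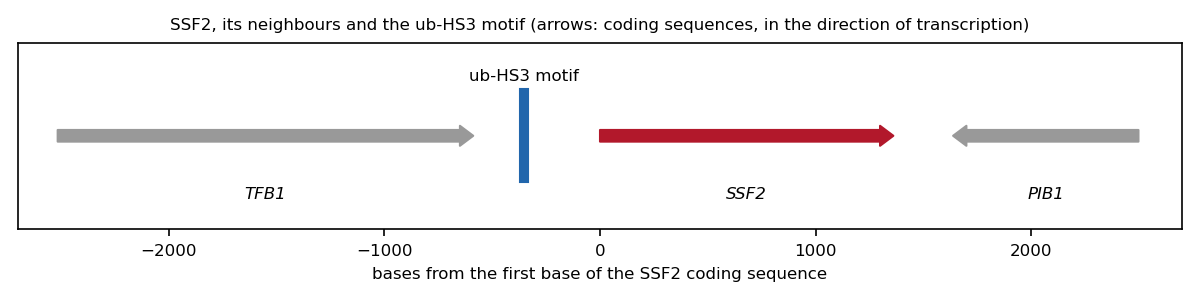
Map of the coding sequences of TFB1, SSF2 and PIB1 (arrows, in the direction of transcription) and of the ub-HS3 motif (blue bar), with the distance in bases from the first base of SSF2 on the x axis. The motif lies in the gap of 587 bases between TFB1 and SSF2, nearer to TFB1 (219 bases) than to SSF2 (334 bases).

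The promoters of the 8 genes were compared in a window from 250 bases before to 50 bases after the first coding base, read from R64 in the direction of the gene. The window of SSF2, chrIV:1087331-1087630, starts after the end of the ub-HS3 motif and therefore does not contain it. It is printed whole, since SSF2 is the gene chosen by its level in euc1∆ cells, with its match to the RRPE core in capitals.
SSF2 promoter: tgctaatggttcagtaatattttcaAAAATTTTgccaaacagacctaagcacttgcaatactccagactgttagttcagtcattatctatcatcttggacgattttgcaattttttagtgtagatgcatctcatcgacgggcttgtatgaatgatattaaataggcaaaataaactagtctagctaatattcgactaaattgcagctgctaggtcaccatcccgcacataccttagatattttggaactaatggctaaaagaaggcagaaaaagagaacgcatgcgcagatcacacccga

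PAC (GCGATGAG, either strand) was found in 5 of the 8 windows, against 236 (3.9%) of 6001 windows of all nuclear protein-coding genes and 59 (49.6%) of 119 other assembly genes. The 5 matches are shown with 11 bases to each side and the match in capitals, which for SSF1 and BRX1 reads as the reverse complement.
SSF1: aagaagctcatCTCATCGCgatattagttc
RPF1: taaaatttttaGCGATGAGatgtaaaaaga
BRX1: aattttagatgCTCATCGCgatggttctca
RPF2: ttcatttttttGCGATGAGctaaggatcga
IMP4: atcccggaaatGCGATGAGatgaaaatgca

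SSF2, RRP14 and RRP15 had no exact PAC. With 1 base different from PAC allowed, 7 of the 8 windows held a match, RRP15 being the exception, against 1126 (18.8%) of all windows and 102 (85.7%) of the other assembly genes. In SSF2 the near match, on the other strand, differed from PAC by G1T (counted from 1 at the 5′ end of PAC), and in RRP14 by C2A. The near match of SSF2 stood 121 to 114 bases before the start, and the exact PAC of SSF1 97 to 90 bases before it. It is shown for comparison with the SSF1 line above.
SSF2 near match: tgtagatgcatCTCATCGAcgggcttgtat

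The RRPE core (AAAATTTT, its own reverse complement) was found in 7 of the 8 windows, SSF1 being the exception, against 542 (9.0%) of all windows and 90 (75.6%) of the other assembly genes. Both elements occurred together in RPF1, RPF2, BRX1 and IMP4, that is in 4 of 8 windows, against 117 (1.9%) of all windows and 47 (39.5%) of the other assembly genes. By exact matches the paralogs thus split the elements between them in these windows, PAC with SSF1 and the RRPE core with SSF2. The split depends on that rule, since SSF2 held a near match to PAC and near matches to the RRPE core were not sought. The 7 matches are shown in the same way, and none overlapped a PAC match.
SSF2: taatattttcaAAAATTTTgccaaacagac
RRP14: acaccaaattgAAAATTTTttaaaatgaat
RRP15: cctcttattggAAAATTTTgaaagaaaaaa
RPF1: aaaggaaaagtAAAATTTTtagcgatgaga
BRX1: aaggtgactgaAAAATTTTagatgctcatc
RPF2: tatacgatttgAAAATTTTtcatttttttg
IMP4: gaaaaatataaAAAATTTTatcccggaaat

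The coding sequences of SSF2 and SSF1 are both 1362 bases long and are identical at 1256 of them (92.2%), with a longest identical run of 92 bases. The proteins they encode are identical at 426 of 453 residues. Reads were 75 bases long, and 18 of the 1288 windows of that length (1.4%) in either gene also occur in its paralog, so few reads of one gene could have come from the other. None of the windows of the other 6 genes occurs elsewhere in the genome. Between all other pairs of the 8 proteins, identity over the shorter protein was at most 28.6%, which was reached by RPF1 and IMP4.

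BRX1 had the highest mean in all 4 groups, at 240.7 ± 5.75 TPM in euc1∆, 241.5 ± 5.46 in WT, 256.5 ± 6.95 in pGAL-EUC1 and 230.9 ± 16.2 in the control (SD, n = 3 each). SSF2 had the lowest mean in all 4 groups, at 26.4 ± 2.54 TPM in euc1∆, 43.1 ± 2.78 in WT, 53.3 ± 2.29 in pGAL-EUC1 and 50.7 ± 2.03 in the control. No sample of SSF2 reached the lowest sample of any other gene.

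In euc1∆ and in WT the order after BRX1 was RRP14, RRP15, RPF2, IMP4, then SSF1 and RPF1, then SSF2. In both groups the samples of RRP14 overlapped those of RRP15, and those of SSF1 overlapped those of RPF1, so these neighbours were not ordered by the data. In pGAL-EUC1 the order was BRX1, RPF2, RRP14, RRP15, IMP4, RPF1, SSF1 and SSF2, with overlap between neighbours only for RRP14 and RRP15. In the control it was BRX1, RRP15, RPF2, RRP14, IMP4, RPF1, SSF1 and SSF2, with overlap between RPF2 and RRP14 and between IMP4 and RPF1. RRP15 and RPF2 thus stood in opposite order in these 2 groups, without overlap in either.

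**Figure D2:**
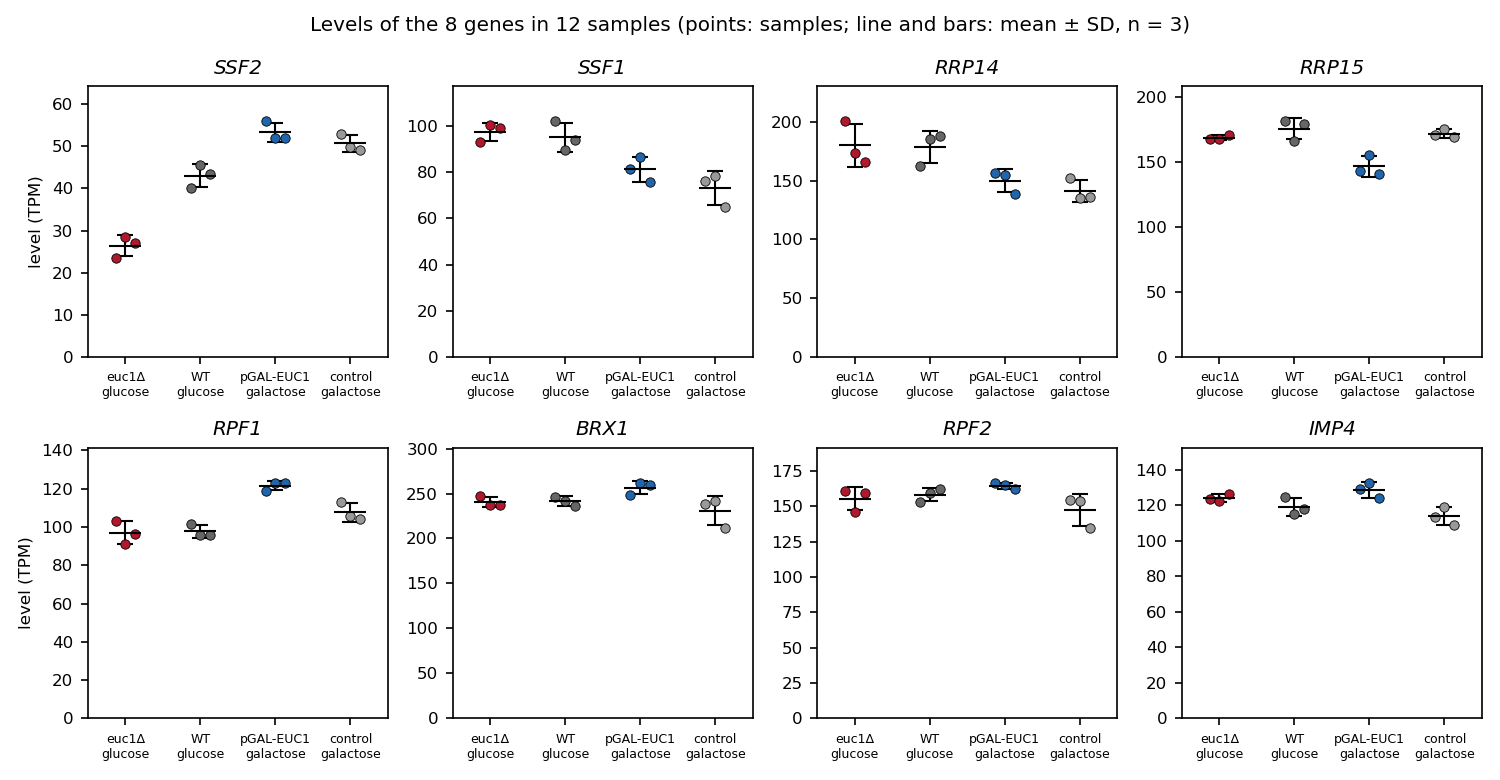
Level in TPM (y axis, from 0) of each of the 8 genes in 12 samples, with euc1∆ and WT in glucose and pGAL-EUC1 and control in galactose on the x axis; points are samples, horizontal lines means and bars the SD (n = 3). SSF2 lies between 23.6 and 28.5 TPM in euc1∆ and between 40.1 and 45.6 TPM in WT, while the samples of the other 7 genes overlap between these 2 groups.

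In euc1∆ cells SSF2 was at 23.6, 28.5 and 27.1 TPM, against 40.1, 45.6 and 43.4 TPM in WT. The groups did not overlap, and the mean in euc1∆ was 0.613 of that in WT. On the log2(TPM + 1) scale the difference was -0.69 ± 0.10 (SE). These are the values for which SSF2 was chosen. Of all 6217 genes that averaged 1 TPM or more in this comparison, 7.37% were lower in euc1∆ without overlap, and nothing is read from the count for SSF2.

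SSF1, the paralog, was at 93.2, 100.7 and 99.0 TPM in euc1∆, against 102.1, 89.5 and 93.9 TPM in WT. Its groups overlapped and its difference was 0.04 ± 0.08 (SE), so the lower level of SSF2 was not accompanied by a change of similar size in its near-identical copy. RRP14, a partner of Ssf1, had 200.6, 173.6 and 165.9 TPM in euc1∆, against 162.6, 185.9 and 187.8 TPM in WT. RRP15, the third protein of that module, had 167.6, 167.5 and 170.9 TPM in euc1∆, against 181.2, 166.2 and 179.3 TPM in WT. Their differences were 0.01 ± 0.10 and -0.06 ± 0.07 (SE), within the spread of the samples.

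The remaining members, RPF1, BRX1, RPF2 and IMP4, differed by -0.01 ± 0.08, -0.01 ± 0.06, -0.03 ± 0.07 and 0.06 ± 0.07 (log2 scale, SE). The largest difference among the 7 genes other than SSF2 was thus 0.06 in size, against a median of 0.005 over all genes tested. None of the 7 had groups without overlap. Of all 6217 genes tested, 355 were higher and 458 lower in euc1∆ without overlap, so nothing is read from that count. Summed over these 7 genes the level was 1096, 1039 and 1055 TPM in euc1∆, against 1072, 1054 and 1073 TPM in WT.

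The 4 lists of other assembly genes gave no call in this comparison with limma at an adjusted p under 0.1. Of their 119 genes 0 were called and 2 had an unadjusted p under 0.05. Of all 6217 genes tested 2 (0.0322%) were called, of which 1 was EUC1 itself, and 469 had an unadjusted p under 0.05. With so few calls over all genes, the 0 calls in the lists do not show that their levels were unchanged. The lists were genes of 60S assembly (46 genes, median difference 0.04), of 40S assembly (54 genes, 0.04), of RNA polymerase I (8 genes, 0.04) and the 11 partners of the members (-0.02). The partners lay between -0.12 for IMP3 and 0.13 for MAK16, the partner of Rpf1.

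The genes beside SSF2 on the chromosome were looked at as well. TFB1, upstream of the ub-HS3 motif, had 24.5, 23.0 and 22.7 TPM in euc1∆, against 19.9, 23.1 and 21.9 TPM in WT (difference 0.11 ± 0.10 SE, adjusted p = 0.869 by limma). PIB1, which encodes a ubiquitin ligase of endosomes and vacuole and runs towards the end of SSF2, had 19.1, 18.9 and 16.7 TPM in euc1∆, against 20.0, 23.7 and 23.4 TPM in WT. PIB1 was thus lower in euc1∆ without overlap, as were 7.37% of all genes tested, and was not called (difference -0.28 ± 0.11 SE, adjusted p = 0.61 by limma).

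The second experiment asked whether more EUC1 changes these genes, in samples that had no part in choosing SSF2. SSF2 was at 56.0, 52.1 and 51.9 TPM in pGAL-EUC1, against 53.0, 49.9 and 49.2 TPM in the control. The samples overlapped and the difference did not pass the threshold (0.07 ± 0.05 SE, 95% interval -0.05 to 0.19, adjusted p = 0.382 by limma). The interval leaves room for a rise of up to 0.19 and for a fall of up to 0.05 on the log2 scale, at a mean EUC1 level 52.8 times that of the control. SSF1 was at 81.4, 86.8 and 76.0 TPM in pGAL-EUC1, against 76.3, 78.4 and 64.8 TPM in the control (0.155 ± 0.08 SE, 95% interval -0.03 to 0.34, adjusted p = 0.232).

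RRP15 fell. It had 143.3, 155.6 and 140.6 TPM in pGAL-EUC1, against 170.3, 175.6 and 168.8 TPM in the control. RRP15 was thus lower without overlap, as were 462 of all 6332 genes tested. The difference was -0.23 ± 0.05 (SE, adjusted p = 0.0319 by limma), a mean level 0.854 of that of the control. RRP15 was called in 16 of 17 fits, losing the call only without replicate 1 of pGAL-EUC1 (-0.21, adjusted p = 0.124). RRP14, its partner, was at 156.2, 155.2 and 138.8 TPM in pGAL-EUC1, against 152.1, 135.4 and 135.9 TPM in the control (0.09 ± 0.07 SE, adjusted p = 0.383).

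RPF1 and IMP4 rose by small amounts. RPF1 had 118.7, 123.1 and 123.0 TPM in pGAL-EUC1, against 113.3, 105.8 and 104.0 TPM in the control (0.17 ± 0.05 SE, adjusted p = 0.0525 by limma). IMP4 had 129.3, 132.6 and 123.9 TPM in pGAL-EUC1, against 113.5, 119.0 and 109.1 TPM in the control (0.175 ± 0.05 SE, adjusted p = 0.0585 by limma). Neither gene overlapped between the groups, but of the 6 fits that left out a sample RPF1 kept its call in 1 (without replicate 1 of the control) and IMP4 in 2 (without replicate 2 of the control or replicate 3 of pGAL-EUC1). Both calls were also lost after rescaling by the median of ratios, at differences of 0.10 each (adjusted p = 0.226 and 0.272).

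BRX1 and RPF2 showed differences of nearly the same size without a call. BRX1 had 248.7, 261.9 and 259.0 TPM in pGAL-EUC1, against 238.7, 241.7 and 212.2 TPM in the control (0.15 ± 0.06 SE, adjusted p = 0.115). RPF2 had 166.5, 164.8 and 161.9 TPM in pGAL-EUC1, against 154.1, 153.3 and 134.3 TPM in the control (0.16 ± 0.06 SE, adjusted p = 0.113). In all, 2 of the 8 genes rose and 1 fell, where 16.0% of the 6332 genes tested rose and 4.42% fell. RPF1, IMP4, BRX1 and RPF2 were higher without overlap, as were 29.7% of all genes.

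Replicate 3 of the control was low in the sums of these genes. The 8 genes summed to 1100, 1132 and 1075 TPM in pGAL-EUC1, against 1071, 1059 and 978.3 TPM in the control, and the 46 genes of 60S assembly to 6308, 6317 and 6132 TPM, against 6096, 5974 and 5468 TPM. Without that sample limma called 0 of the 8 genes higher and 1 (RRP15) lower, with 4 at an unadjusted p under 0.05. Of the 6333 genes tested in that fit, 11.1% were called higher and 3.62% lower, and 1728 had an unadjusted p under 0.05. The median difference of the 8 was 0.08 there, against 0.07 over all genes. With it, the median of the 8 was 0.15, against 0.08 over all genes.

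Among the other assembly genes 35 of 119 rose and 2 fell, and 82 were not called. The median difference was 0.13 for 60S assembly (13 of 46 rose), 0.12 for 40S assembly (13 of 54 rose and 2 fell), 0.21 for RNA polymerase I (5 of 8 rose) and 0.15 for the partners (4 of 11 rose), all above the median of 0.08 over all genes. Without replicate 3 of the control the medians were 0.08, 0.07, 0.13 and 0.08 in that order, against 0.07 over all genes. After rescaling by the median of ratios, which moved the median of all genes to 0.01, 8 of the 119 rose and 2 fell. Over all genes, 288 rose and 526 fell after rescaling, against 1014 and 280 before it. In the fits that left out a sample the number that rose was 3 without replicate 1 of pGAL-EUC1, 17 without replicate 2 and 14 without replicate 3. It was 32, 17 and 17 without replicates 1, 2 and 3 of the control.

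The largest rises in 60S assembly were those of IPI3, DBP6 and NOC3. IPI3, a subunit of the Rix1 complex, had 66.4, 65.5 and 63.5 TPM in pGAL-EUC1, against 52.1, 53.3 and 52.2 TPM in the control (0.30 ± 0.04 SE, adjusted p = 0.00799 by limma). DBP6, an RNA helicase, rose by 0.29 and NOC3, of the Noc2-Noc3 pair, by 0.25. In 40S assembly the processome genes UTP11 and UTP8 rose by 0.295 and 0.27, and the helicase gene FAL1 by 0.26. These 3 calls were lost after rescaling (differences of 0.22, 0.20 and 0.19), where 0 of the 54 genes were called higher and 11 had an unadjusted p under 0.05. RRN3, the initiation factor of RNA polymerase I, rose by 0.33, and the polymerase subunits RPA14 and RPA43 by 0.29 and 0.25. The 2 genes that fell, NOP58 and SNU13, both encode core proteins of box C/D snoRNPs. NOP1 and NOP56, which encode the other core proteins, differed by 0.04 and -0.01, so the fall was not one of the whole core. SNU13 had 626.5, 616.5 and 609.5 TPM in pGAL-EUC1, against 686.1, 682.6 and 689.4 TPM in the control (-0.15 ± 0.03 SE, adjusted p = 0.0292), and NOP58 fell by 0.18 (adjusted p = 0.0506).

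Of the 11 partners of the members 4 were called higher, while IMP3 and MPP10 had differences of nearly the same size as NSA1 without a call. MAK16, NSA1 and RRP1, which act with Rpf1, rose by 0.165, 0.16 and 0.165, as did MAK11, another 60S factor, by 0.25. After rescaling MAK11 alone kept its call (0.18, adjusted p = 0.084), and MAK16, NSA1 and RRP1 were at 0.09, 0.08 and 0.09. MAK11 was also the one partner called without replicate 3 of the control. EBP2, the partner of Brx1, differed by 0.08 and RRS1, the partner of Rpf2, by 0.13, without a call. The ribosomal protein genes RPL5, RPL11A and RPL11B differed by 0.02 or less in size. IMP3 and MPP10, the partners of Imp4, differed by 0.16 and 0.15 (adjusted p = 0.126 and 0.15), and by 0.09 and 0.08 after rescaling. Beside SSF2, PIB1 rose, with 53.3, 50.4 and 52.6 TPM in pGAL-EUC1, against 44.5, 46.1 and 48.6 TPM in the control (0.17 ± 0.05 SE, adjusted p = 0.0755), a call that was lost after rescaling (0.09, adjusted p = 0.328), while TFB1 differed by 0.06 ± 0.07 (adjusted p = 0.596).

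**Figure D3:**
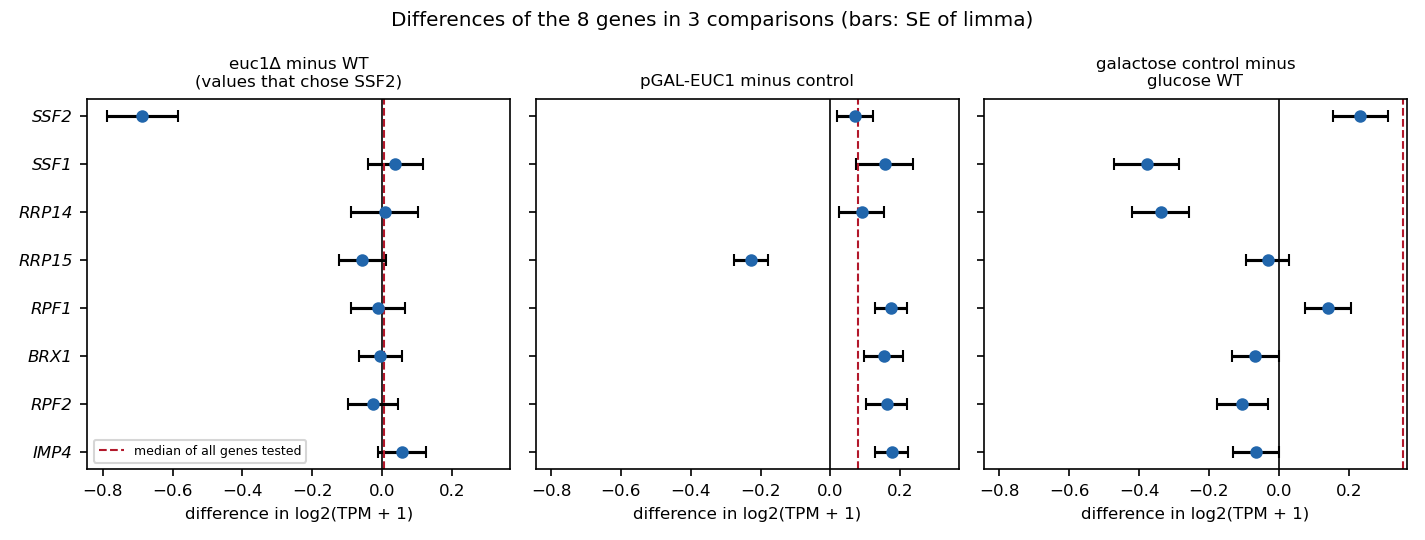
Difference in log2(TPM + 1) of each of the 8 genes (x axis, points, with the SE of limma as bars) in euc1∆ minus WT, pGAL-EUC1 minus control and galactose control minus glucose WT; the dashed line is the median of all genes tested. SSF2 is at -0.69 in the left panel, the value for which it was chosen. RRP15 is at -0.23 in the middle panel, and in the right one all 8 genes lie left of the median of 0.36.

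The control of the second experiment was also set against the WT of the first, to describe the members over all 4 groups. Strain, medium, the EUC1 and MED11 constructs and the experiment differ together here and cannot be told apart. The comparison shares its control samples with the second experiment and its WT samples with the first, so it is no independent repeat of either. SSF2 is described without a test, since the WT samples had a part in choosing it.

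The scale of the values mattered. On the TPM scale the median difference of all 6324 genes was 0.36, with 57.8% called higher and 13.3% called lower in the control. After rescaling by the median of ratios it was -0.001, with 34.8% called higher and 34.0% called lower. Relative to the median of all genes, every one of the 8 genes was lower in the control. The members' differences less that median ran from -0.73 for SSF1 to -0.12 for SSF2.

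SSF1 and RRP14 were lower in the control on both scales. SSF1 had 76.3, 78.4 and 64.8 TPM in the control, against 102.1, 89.5 and 93.9 TPM in WT (-0.38 ± 0.09 SE, adjusted p = 0.00732 by limma). RRP14 had 152.1, 135.4 and 135.9 TPM in the control, against 162.6, 185.9 and 187.8 TPM in WT (-0.34 ± 0.08 SE, adjusted p = 0.00674). Both were called in all 17 fits, and after rescaling the differences were -0.75 and -0.71.

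RPF1 rose on the TPM scale only. It had 113.3, 105.8 and 104.0 TPM in the control, against 101.3, 95.7 and 95.9 TPM in WT (0.14 ± 0.07 SE, adjusted p = 0.0963). After rescaling it fell, at -0.23 (adjusted p = 0.0474). Of the 6 fits that left out a sample, only that without replicate 1 of WT kept the call for the rise. RPF2, BRX1, IMP4 and RRP15 differed by -0.105, -0.07, -0.07 and -0.03 on the TPM scale, without a call, and by -0.48, -0.44, -0.44 and -0.405 after rescaling, with a call each. Of the 7 genes other than SSF2, 1 rose and 2 fell on the TPM scale, and 0 rose and 7 fell after rescaling.

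SSF2 had 53.0, 49.9 and 49.2 TPM in the control, against 40.1, 45.6 and 43.4 TPM in WT. It was higher in the control without overlap, as were 3695 of all 6324 genes tested. Its difference was 0.23 ± 0.08 (SE) on the TPM scale and -0.13 ± 0.06 after rescaling, so its direction depended on the scale. It was the least lowered of the 8 genes relative to all genes, next to RPF1 at -0.22.

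The other assembly genes showed the same dependence. On the TPM scale 16 of 119 were called higher and 36 lower, and after rescaling 0 were called higher and 104 lower. Without replicate 3 of the control, on the TPM scale, 19 were called higher and 23 lower, and the medians of 60S assembly, 40S assembly and RNA polymerase I were 0.035, 0.02 and 0.01. Among the partners the ribosomal protein genes were the lowest. RPL11A had 1227, 1300 and 1209 TPM in the control, against 2628, 2264 and 2305 TPM in WT (-0.94 ± 0.07 SE, adjusted p = 8.28e-06), and RPL5 and RPL11B fell, with differences of -0.58 and -0.495. RRS1, RRP1, EBP2 and MAK16 fell as well, with differences of -0.24, -0.23, -0.18 and -0.18, and IMP3 rose by 0.235, which was -0.12 relative to the median of all genes.

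The largest rises on the TPM scale in the lists lay close to that median, and none kept its call after rescaling. URB2 and DBP3, of 60S assembly, rose by 0.45 and 0.38, which was 0.10 and 0.02 above it, and RRP3, a helicase of 40S assembly, by 0.44, which was 0.09 above it. NOP2 rose by 0.365, UTP10 by 0.33 and NOC4 by 0.325, and RPA190, the largest subunit of RNA polymerase I, by 0.29. Relative to the median of all genes NOP2 was at 0.009, and UTP10, NOC4 and RPA190 were below it, at -0.03, -0.03 and -0.07. The largest falls were those of IPI1, NOG2 and NOP7 (-0.445, -0.44 and -0.42) in 60S assembly, of DHR2, SNU13 and ESF1 (-0.44, -0.39 and -0.37) in 40S assembly, and of RRN3, RPA43 and RPA34 (-0.31, -0.24 and -0.21). PIB1 rose by 1.02, to a mean of 46.4 ± 2.08 TPM in the control, against 22.3 ± 2.05 TPM in WT (SD, n = 3 each, adjusted p = 2.52e-05), and TFB1 by 0.29, which was -0.07 relative to the median of all genes.

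**Figure D4:**
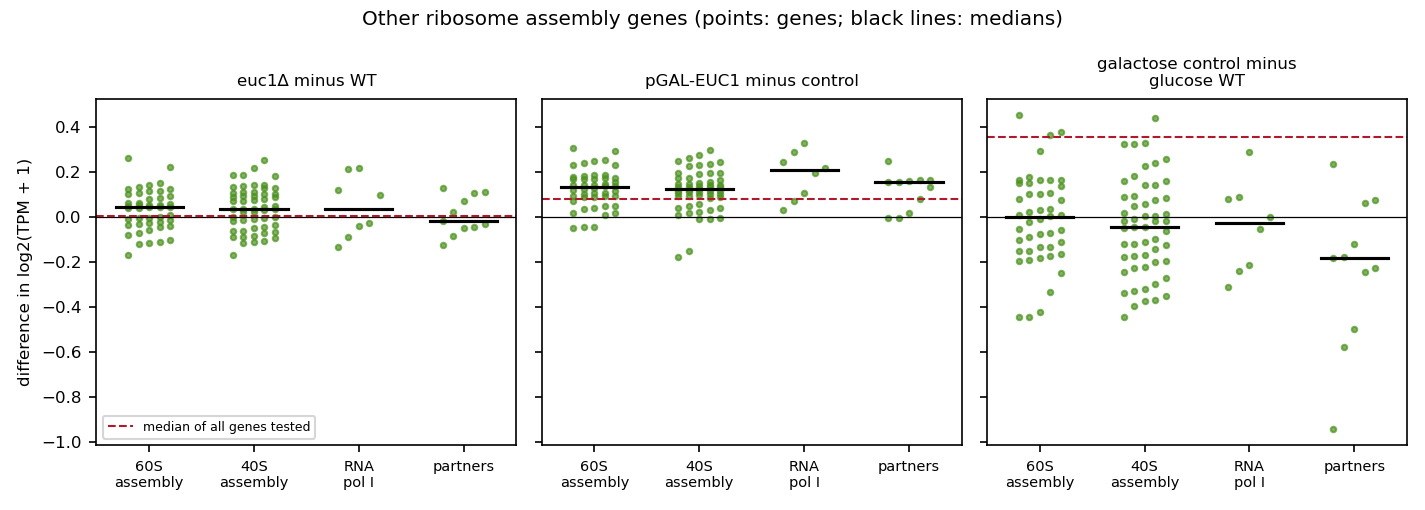
Difference in log2(TPM + 1) (y axis) of each gene of 60S assembly (46), 40S assembly (54), RNA polymerase I (8) and the partners (11) in the 3 comparisons; points are genes, black lines list medians and the dashed line the median of all genes tested. The list medians lie within 0.05 of 0 in the left panel, between 0.12 and 0.21 in the middle one, and at or below 0 in the right one (above 0 for all but the partners without replicate 3 of the control), where the dashed line is at 0.36.

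The share of SSF2 in the summed level of SSF1 and SSF2 does not depend on how a sample is scaled. It was 20.2%, 22.1% and 21.5% in euc1∆, against 28.2%, 33.8% and 31.6% in WT, again as a description. It was 40.7%, 37.5% and 40.6% in pGAL-EUC1, against 41.0%, 38.9% and 43.2% in the control. The means of 39.6% ± 1.82 and 41.0% ± 2.13 (SD, n = 3 each) differed by -1.42 percentage points, less than the spread of the samples (exact permutation test, two-sided, p = 0.4, where 0.1 is the smallest p that 3 against 3 allow).

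Between the experiments the share was 41.0% ± 2.13 in the control and 31.2% ± 2.81 in WT, without overlap, a difference of 9.84 percentage points that is given without a test. The 6 galactose samples lay between 37.5% and 43.2%, above all 6 glucose samples. The pair together was at 116.8, 129.2 and 126.2 TPM in euc1∆, against 142.2, 135.1 and 137.3 TPM in WT. It was at 137.3, 138.9 and 127.9 TPM in pGAL-EUC1, against 129.3, 128.3 and 114.0 TPM in the control.

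**Figure D5:**
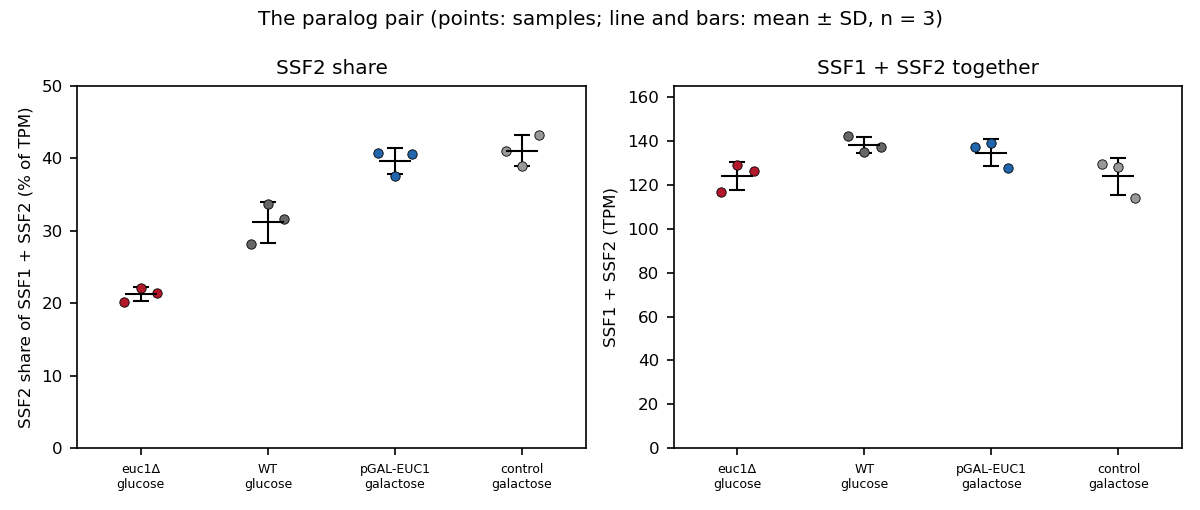
Share of SSF2 in the summed TPM of SSF1 and SSF2 (left, in %) and that sum (right, in TPM), both from 0, in the 4 groups; points are samples, lines means and bars the SD (n = 3). The share lies between 20.2% and 22.1% in euc1∆, between 28.2% and 33.8% in WT and between 37.5% and 43.2% in the 6 galactose samples.

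The genes whose pattern over the 4 groups was most like that of SSF2 were sought among the 5499 genes that averaged 10 TPM or more over the 12 samples. Likeness was the root-mean-square difference between group means of log2(TPM + 1), each gene centred on its own mean. The 5 closest were YJL127W-A (0.05), YER107W-A (0.06), MVB12 (0.06), PUS5 (0.06) and YBL096C (0.065). The ranking takes no account of the spread between samples. Each of the 5 overlapped between WT and control, where SSF2 did not. YBL096C also overlapped between euc1∆ and WT, at 4.95, 6.86 and 15.69 TPM against 10.89, 20.77 and 7.83 TPM. MVB12, a subunit of the ESCRT-I complex, averaged 29.6 TPM in euc1∆, 45.2 in WT, 54.3 in pGAL-EUC1 and 54.7 in the control. PUS5, a mitochondrial pseudouridine synthase, averaged 9.64 TPM in euc1∆, 14.9 in WT, 20.1 in pGAL-EUC1 and 17.1 in the control. None of the 5 is on the lists of assembly genes, and among the members the closest to SSF2 was RPF1 at rank 1994, while SSF1 stood at rank 4486. This is a description of 4 group means, in which the values that chose SSF2 take part.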

How the data were processed

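The authors sequenced polyA-enriched RNA (75-base single-end reads), aligned with STAR 2.6.0a against ENSEMBL R64-1-1 transcripts, and deposited TPM values from RSEM 1.3.0. Tests in the study were run on counts, which were not used here. Whether counting used strand is not given in the sources used here. TPM values carry no depth, so no counting error could be given. The table holds 6825 identifiers, of which 5903 match the R64 annotation. Its header is 1 cell short, and column names were matched to sample titles.

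Each comparison of 3 against 3 samples had its own fit with limma 3.58.1 (R 4.3.3) of log2(TPM + 1), with a trend in the prior variance. Genes averaging under 1 TPM over the 6 samples were left out. On this scale the changes of low genes are understated. P-values are two-sided, with Benjamini-Hochberg adjustment over every gene tested, and a gene was called at an adjusted p under 0.1. The fit was checked on simulated data with changes of 1 on the log2 scale, so its recovery of smaller changes was not checked. No p is given for the 8 genes between euc1∆ and WT, nor for SSF2 or its share between control and WT, although a test of that share had been planned. The 8 genes and the lists were chosen with earlier results of these data known. Named were all members and partners, the genes beside SSF2, and of each other list the 3 largest rises and falls among called genes. NOP1 and NOP56 were added beside NOP58 and SNU13. Sequences and coordinates were read from the RefSeq copy of R64, and the place of ub-HS3 was taken from the motif list of the study. Protein identities come from translated coding sequences.

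Alternative fits changed the pseudocount (0.1, 5), the filter (none, or 10 TPM), the scaling (median of ratios), the prior (no trend), the samples (all 12, or without each in turn), or added a replicate block, a correction for gene length and GC content, or both. Python 3.11.15, numpy 2.4.6, pandas 2.3.3, scipy 1.17.1, Biopython 1.88 and matplotlib 3.10.9 were used.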

Additional observations from a re-analysis of the deposited data

How the results depend on the processing

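After rescaling by the median of ratios, 4 genes were called between euc1∆ and WT (2 as reported). Between pGAL-EUC1 and control 814 genes were called (1294), with 288 higher and 526 lower (1014 and 280), and 1 of the 8 members (3), with 8 other assembly genes higher (35), while SSF2 moved to -0.003 on the log2 scale. Between control and WT, 0 other assembly genes were higher (16) and 104 lower (36), 7 of the 7 members other than SSF2 were called (3), and RPF1 turned to -0.23.

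With all 12 samples in 1 fit, 101 genes were called between euc1∆ and WT, and 163 between pGAL-EUC1 and control, with 1 member called, 7 other assembly genes higher and 0 lower. A prior without a trend gave 18 assembly genes higher there. Between euc1∆ and WT a pseudocount of 0.1 or of 5 and the correction for gene length and GC content (91.3% of genes had both values) each gave 1 call, and a mean of at least 10 TPM gave 0. Between control and WT that correction gave 30 assembly genes higher and turned BRX1 to 0.026 and RRP15 to 0.045, values that stayed the same with the block added.

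Correlations between same-numbered samples were small and of both signs (between -0.107 and 0.189). The highest was that of replicate 2 of pGAL-EUC1 and control, where other numbers gave at most -0.003. For replicate 3 of pGAL-EUC1, by contrast, other numbers of the control gave up to 0.169, against -0.107 for the same number. Whether the numbers stand for more than a label cannot be told from these values. With the replicate block 1 gene was called between euc1∆ and WT, 5 members between pGAL-EUC1 and control (SSF1 and RPF2 in addition), and 10 other assembly genes were higher between control and WT. With the block and the correction together the counts were 1, 5 and 28, and 1 assembly gene was lower between pGAL-EUC1 and control.

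Without 1 sample, the number of genes called ranged from 1 to 3 between euc1∆ and WT and from 263 to 1081 between pGAL-EUC1 and control. There the other assembly genes ranged from 3 to 32 higher and 0 to 2 lower and the members called from 0 to 2. Between control and WT the assembly genes ranged from 7 to 21 higher and from 23 to 43 lower. SSF2 in euc1∆ against WT stayed between -0.74 and -0.61 in all 17 fits. The difference in SSF2 share between pGAL-EUC1 and control stayed negative, between -2.48 and -0.35 percentage points.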

Other observations

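As a measure that no scaling of a sample can move, the share of each member in the summed TPM of the 8 genes was taken, as a description without a test. SSF2 made up 2.11%, 2.67% and 2.50% of the sum in euc1∆ and 3.61%, 4.15% and 3.89% in WT. It made up 5.09%, 4.60% and 4.83% in pGAL-EUC1 and 4.95%, 4.71% and 5.03% in the control. RRP15 made up 13.03%, 13.75% and 13.08% in pGAL-EUC1 and 15.9%, 16.6% and 17.3% in the control, without overlap, while in glucose its samples overlapped, at 14.97%, 15.69% and 15.79% in euc1∆ and 16.3%, 15.1% and 16.1% in WT. RRP14, its partner, made up 14.2%, 13.7% and 12.9% in pGAL-EUC1 and 14.2%, 12.8% and 13.9% in the control, with overlap. In the same samples RPF1 made up 10.79%, 10.87% and 11.44% in pGAL-EUC1 and 10.58%, 9.99% and 10.63% in the control. IMP4 made up 11.76%, 11.71% and 11.53% in pGAL-EUC1 and 10.60%, 11.24% and 11.15% in the control. RPF2 made up 15.14%, 14.56% and 15.06% in pGAL-EUC1 and 14.38%, 14.48% and 13.73% in the control. In this share these 3 genes were higher in pGAL-EUC1 without overlap, while BRX1 and SSF1 overlapped. In TPM rescaled by the median of ratios, 0 of the 8 genes were higher without overlap and 1 was lower. Of all 6332 genes tested, 833 were higher and 969 lower without overlap on that scale. The shares add up to the whole, so a lower share of RRP15 raises the others.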
